A study of Homo sapiens with 24 samples.

Results

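The nuclear genes for serine, threonine and proline tRNAs were followed in human HEK293 cells that overexpressed eGFP or 1 of 3 lamins. They were taken from a table of 175946 non-coding features as the rows off the mitochondrial chromosome whose type was a tRNA and whose first listed name began with tRNA-Ser, tRNA-Thr or tRNA-Pro. This gave 71 genes of 499 nuclear tRNA features: 27 for serine, 22 for threonine and 22 for proline. The same 71 rows were then found in the chromatin table by their row number. The choice used names only and no measured value. RefSeq holds a gene at 67 of the 71 positions, and those RefSeq symbols (TRS for serine, TRT for threonine, TRP for proline) are used below.

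HEK293 is a human embryonic kidney cell line, obtained from ATCC according to the labels and of genotype Wild Type in every group. The groups overexpressed eGFP, a fluorescent protein that serves as the control here, or LMNA, LMNB1 or LMNB2, and they are called GFP, LMNA, LMNB1 and LMNB2. Lamins are filament-forming proteins that build the lamina under the nuclear membrane, where parts of the genome are held. Each group had 3 small RNA libraries, made from small RNA-enriched total RNA, and 3 ATAC-seq libraries, in which a transposase cuts accessible DNA, so the series held 24 libraries. The labels name neither the vector, its dose nor the time of expression, and they do not say whether replicates were separate cultures, so p-values measure the spread between these samples, which may be technical. The series title places the comparison within work on RNA polymerase III activity and the folding of the genome. The tables list non-coding features, so the lamin transcripts were not analysed here and the overexpression was not checked. Cells from the same conditions were collected again for the RNA, so the small RNA and ATAC libraries come from different collections. In bulk samples such as these, fewer cells of a kind and less RNA per cell cannot be told apart.

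A tRNA carries an amino acid to the ribosome and reads the matching codons with its anticodon, the 3 letters that name each gene below. RNA polymerase III transcribes tRNA genes from promoter elements inside the gene, the A box and the B box, which the factor TFIIIC binds. RNase P then removes the 5′ leader, the 3′ trailer is trimmed and CCA is added. Serine tRNAs are recognised by their synthetase through a long variable arm, which most other tRNAs lack. Human genomes keep many copies of each tRNA gene, often in clusters, and not all copies are transcribed in a given cell.

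The genes covered 11 anticodons. Serine had AGA (11 genes), GCT (8), CGA (4) and TGA (4). Threonine had AGT (10 genes), CGT (6) and TGT (6), and proline had AGG (10), TGG (7), CGG (4) and GGG (1). Chromosome 6 held 29 of the 71, namely 17 serine, 10 threonine and 2 proline genes, all between 26305468 and 28726116, a stretch of 2.42 Mb (GRCh38, per the submitters' processing notes). Chromosomes 16 and 17 held 9 each and chromosome 14 held 7. Of the 71, 55 overlapped no other annotated gene and 7 lay within protein-coding genes. Gene length had a median of 82 bases for serine, 74 for threonine and 72 for proline genes. All serine genes with a RefSeq gene had 82 bases except TRS-GCT6-1, with 84, and TRS-AGA5-1, with 72. The latter lies on chromosome 7 within the pseudogene ZNF767P, where 15 cysteine and 1 tyrosine tRNA features lie within 250 kb. In the small RNA table each gene was counted with 25 bases on either side (22 for TRS-GCT6-1), and the ATAC window reached a further 125 bases out on each side.

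Small RNA libraries held between 132507051 and 195074742 counts over the listed features, and ATAC libraries between 156043245 and 290158229. The third GFP small RNA library stood apart before any test. The 71 genes took 0.171% of its counts, against 0.0558% and 0.0587% in the other GFP libraries, 0.0902% to 0.0944% in LMNA, 0.0944% to 0.109% in LMNB1 and 0.0776% to 0.0882% in LMNB2. Its scaling factor (TMM, a trimmed mean of log ratios) was 1.31, against 0.631 and 0.905 in the other GFP libraries. In the ATAC libraries the mitochondrial share of counts also differed between groups. It was 39.9% to 47.5% in GFP, 39.4% to 44.1% in LMNA, 32.8% to 34.1% in LMNB1 and 24.5% to 30.7% in LMNB2. For the 71 genes, the main comparisons with GFP that lean on the third GFP library are given with and without it. Other values against GFP include it, among them those of genes outside the 71. A fit without mitochondrial features left the ATAC counts of calls unchanged. The part of the mitochondrial share in the ATAC results was not tested further.

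Levels below are in CPM, a library's counts set to a common total of 1e6 after TMM scaling, and levels of different genes are compared per kilobase of the counted interval. Serine and proline genes were the better represented in small RNA. The median level was 93.6 CPM per kb over the 27 serine genes, 87.2 over the 22 proline genes and 17.9 over the 22 threonine genes. Serine genes together made up 55.7% of the small RNA counts of the 71 genes, proline genes 38.2% and threonine genes 6.14%. By group the serine share was 62.0% in GFP, 55.4% with LMNA, 54.1% with LMNB1 and 50.2% with LMNB2. The GFP share leaned on the third GFP library. Averaged over the first and second GFP libraries alone, serine genes had 428 of 767 CPM. With LMNA they had 541 of 977 CPM, with LMNB1 530 of 980 and with LMNB2 379 of 754. At 100 CPM per kb or more stood 10 serine and 9 proline genes and 0 threonine genes. The counts were concentrated: 5 genes held 41.2% of the total. These were TRS-TGA1-1 (155 CPM, 17% of the total), TRS-GCT3-1 (62.7 CPM), TRS-AGA5-1 (54.3 CPM), TRP-TGG3-2 (52.2 CPM) and TRP-TGG3-1 (51.9 CPM). The levels and shares include the third GFP library, where TRS-TGA1-1 stood at 5.80 times the mean of the other GFP libraries.

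Levels also differed between anticodons of the same amino acid. The 4 serine CGA genes had a median of 5.56 CPM per kb, against 94.4 for AGA, 97.1 for TGA and 103 for GCT. Even the highest CGA gene, TRS-CGA3-1, reached only 11.3 CPM per kb (1.5 CPM). Among proline genes TGG stood highest with a median of 204 CPM per kb, followed by CGG with 117 and AGG with 83.7. The threonine medians lay close together at 16.2 (AGT), 23.0 (CGT) and 17.7 (TGT), and the highest threonine gene was TRT-AGT1-1 at 48.0 CPM per kb (5.95 CPM). The only gene for proline GGG, TRP-GGG1-1, is a pseudogene in RefSeq, lies within PIP4K2A, and had 0 counts in all 12 small RNA libraries. A count of 0 allows up to 0.0169 to 0.0258 CPM depending on the library (3 counts, counting error only). Also near the floor were tRNA-Thr-AGT-7-1, with 0 or 1 counts per library, and tRNA-Ser-AGA-6-1, with 2 to 12.

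**Figure D1:**
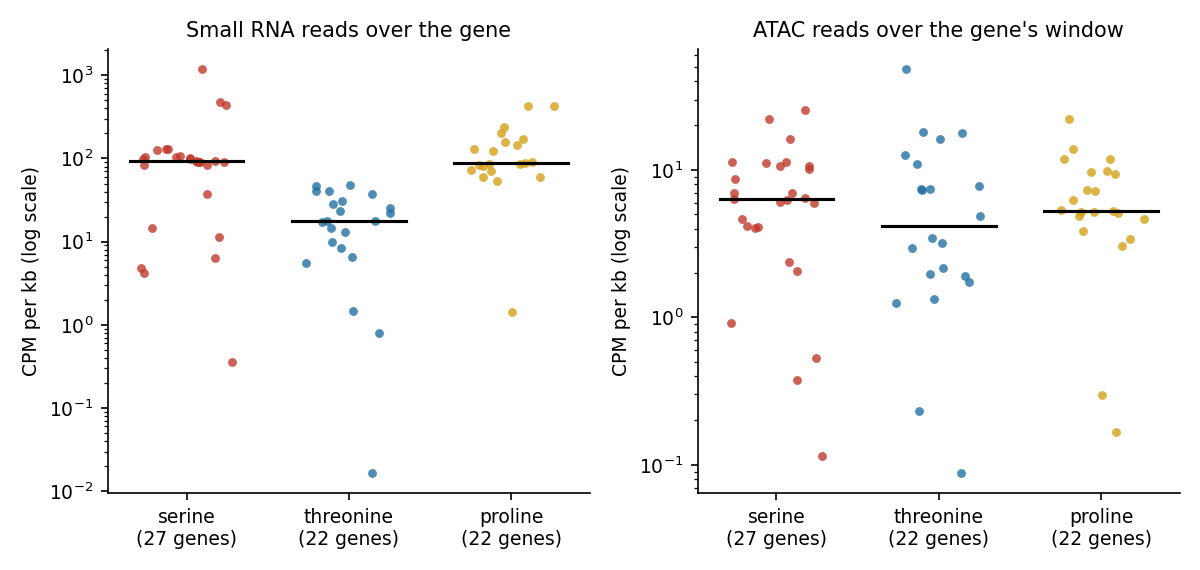
Level of each gene, as the mean of 12 libraries in CPM per kb on a log axis, in small RNA (left) and ATAC (right), by amino acid; each point is a gene and the bar is the median. Threonine genes sit lowest in small RNA with a median of 17.9, while the ATAC medians of 6.38, 4.18 and 5.28 lie near each other; TRP-GGG1-1, at 0 in small RNA, is left out of the left panel.

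Several genes are identical copies, and reads from identical copies cannot be assigned by the gene sequence alone. The 71 genes carried 48 distinct RNAcentral identifiers, so the counts of single copies are uncertain, and the handling of reads with several matches is not given in the sources used here. The 8 copies behind TRP-AGG2-1 to TRP-AGG2-8, on 6 chromosomes, differed 2.19-fold in small RNA, from 7.28 CPM at TRP-AGG2-2 to 15.9 CPM at TRP-AGG2-3. The 5 copies named TRP-TGG3 differed 8.01-fold, from 6.52 CPM at TRP-TGG3-5 to 52.2 CPM at TRP-TGG3-2. The 6 serine copies TRS-AGA2-1 to TRS-AGA2-6 differed only 1.46-fold, from 11.8 to 17.2 CPM. In ATAC the same sets of copies differed 4.55-fold, 2.08-fold and 2.79-fold. The widest ATAC gap between identical copies was for threonine: TRT-AGT1-3 on chromosome 19 had 17.9 CPM, against 1.83 CPM at TRT-AGT1-2 on chromosome 17 within CTC1, a 9.80-fold difference beside a 2.14-fold range in small RNA.

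In ATAC the median level was 6.38 CPM per kb over serine genes, 4.18 over threonine and 5.28 over proline genes. The highest 3 genes came from all 3 amino acids: TRT-AGT1-3 (chr19:33177032-33177155, 48.0 CPM per kb, 14.3 to 20.2 CPM over the 12 libraries), TRS-CGA1-1 (chr17:8138856-8138987, 25.3 CPM per kb, 7.68 to 11.0 CPM) and TRP-CGG1-3 (chr17:8222808-8222929, 22.2 CPM per kb). Against the 500 bp on either side, the window of a gene had a median of 4.02 times the ATAC count per base in GFP, from 0.639 at TRP-GGG1-1 to 60.2 at TRT-AGT4-1. The ratio was above 1 for 65 of the 71 genes and above 5 for 32. At the other end, 10 genes had under 0.5 CPM in ATAC, and 7 of those had under 2 CPM in small RNA as well.

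Some genes were high in 1 assay and low in the other. TRS-AGA5-1 (chr7:149608351-149608472) had the third highest small RNA level, 54.3 CPM, with an ATAC level of 0.196 CPM from 18 to 77 counts a library. TRS-AGA3-1 had 11.1 CPM of small RNA and 0.143 CPM in ATAC, and it belongs to the group of near-alike serine genes described below. In the opposite direction, TRS-CGA1-1 had the second highest ATAC level and 0.840 CPM of small RNA. Over the 71 genes the 2 levels had a Spearman correlation of 0.29, with 0.16 within serine, 0.58 within threonine and 0.16 within proline. These are descriptions over genes, which share libraries, sequences and base composition and are no replicates. With the ratio to the 500 bp flanks in place of the ATAC level the correlation was 0.09.

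**Figure D2:**
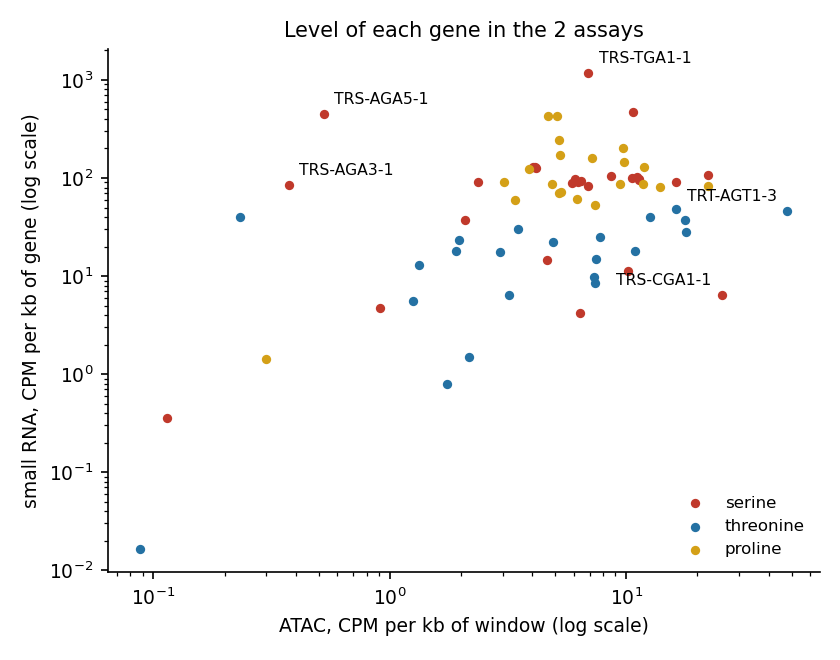
Small RNA level against ATAC level of each gene, both as means of 12 libraries in CPM per kb on log axes and coloured by amino acid. TRS-AGA5-1 and TRS-AGA3-1 lie at the left with 0.196 and 0.143 CPM of ATAC, and TRS-CGA1-1 at the lower right; TRP-GGG1-1, at 0 in small RNA, is not drawn.

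Between groups, the summed small RNA of these genes was lower with LMNB2 than with LMNA or LMNB1. The size of its gap to GFP turned on the third GFP library. The threonine gene TRT-AGT5-1 was the 1 gene that passed the test. Summed over the 71 genes, small RNA was 946 ± 332 CPM in GFP, 977 ± 89.0 with LMNA, 980 ± 74.1 with LMNB1 and 754 ± 44.5 with LMNB2 (SD, n = 3). The LMNB2 libraries had 759, 708 and 797 CPM, below every LMNA library (908, 946 and 1077) and every LMNB1 library (895, 1030 and 1015). The GFP libraries, at 884, 649 and 1305, lay on both sides of them. For 51 of the 68 genes tested the LMNB2 mean was the lowest of the 4 groups, for the other 17 the GFP mean was, and neither LMNA nor LMNB1 was lowest for any. With the GFP mean taken from the first and second libraries, a count added after seeing the data, LMNB2 was lowest for 32 of the 68, GFP for 35 and LMNB1 for 1. The summed GFP mean of those libraries was 767 CPM, beside 754 with LMNB2. How often each group was lowest over all features is not given here, so these counts of lowest means have no background beside them. The test was edgeR's quasi-likelihood test over all 12 libraries and 33893 features that passed the count filter, with Benjamini-Hochberg adjustment over all of them. The 3 genes that did not pass the filter were TRP-GGG1-1, tRNA-Thr-AGT-7-1 and tRNA-Ser-AGA-6-1.

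The genes passing in each comparison were few. Against LMNA, LMNB2 had 1 of 68 genes called at an adjusted p under 0.05, beside 2.01% of all features. Against LMNB1 it was also 1 of 68, beside 2.19% of all features, and in the joint test of 4 groups 1 of 68, beside 1.68%. Against GFP, LMNB2 had 0 of 68 called, beside 2.66% of all features, and DESeq2 called 4. The shares of all features are those of edgeR. For the DESeq2 calls, here and below, the share of all features is not given. At an unadjusted p under 0.05 stood 16 of 68 genes against GFP (14 lower and 2 higher; 19.9% of all features), 15 lower against LMNA (16.4%), 19 lower against LMNB1 (16%) and 18 in the joint test (15.9%). As shares of the 68 genes these are 23.5%, 22.1%, 27.9% and 26.5%. All 3 comparisons of LMNB2 share the LMNB2 libraries and are not independent of each other.

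The direction was more uniform than the calls. Against LMNA, 68 of 68 fitted log2 fold changes were below 0 with a median of -0.37, beside -0.01 over all features, and against LMNB1 65 of 68 with a median of -0.32, beside -0.01. With scaling by total counts alone the split against LMNA became 53 lower and 15 higher and the median of all features moved to 0.22. Relative to that median the genes stood at -0.36, against -0.37 with TMM. Against GFP the median was -0.17 and 52 of 68 were lower, but with total counts 36 were higher and 32 lower, and without the third GFP library 39 of 69 were higher, with a median of 0.077. In 43 of 68 genes all 3 LMNB2 libraries were below all 3 LMNA libraries, beside 13.5% of all features, and in 36 below all 3 LMNB1 libraries, beside 14.1%. Below all 3 GFP libraries they were in 12 of 68, beside 10.2%. Over the other 395 nuclear tRNA features tested, the median was -0.42 against LMNA, -0.36 against LMNB1 and -0.21 against GFP, with 6, 4 and 3 called.

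**Figure D3:**
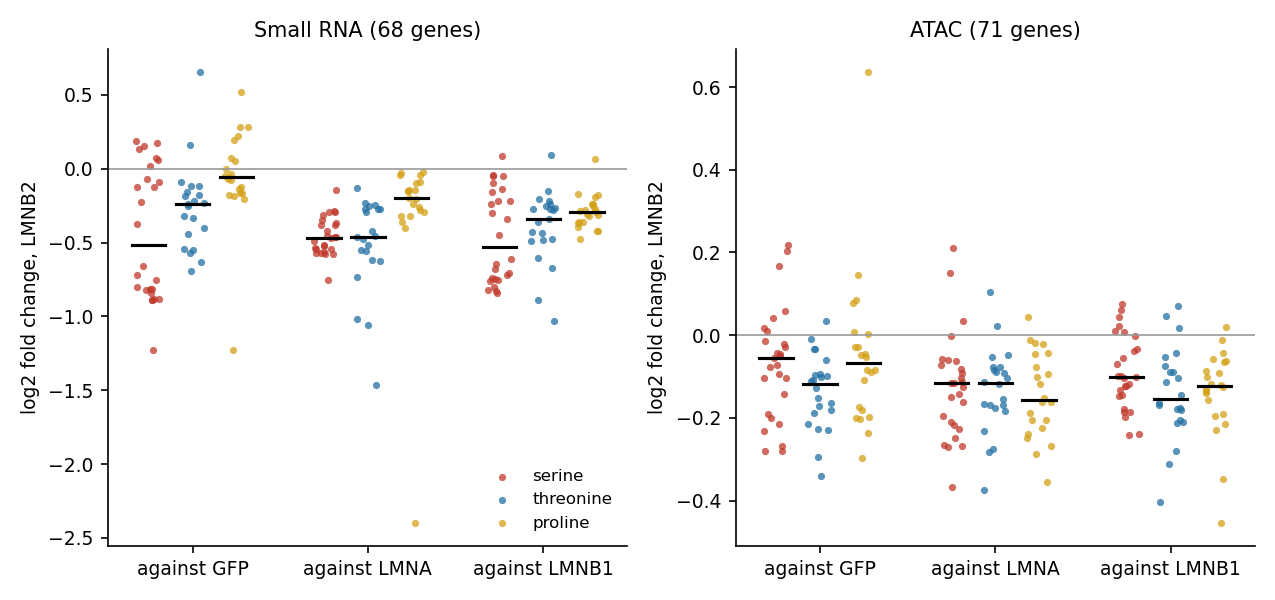
Fitted log2 fold change of LMNB2 against each other group, for 68 genes in small RNA (left) and 71 in ATAC (right); points are genes coloured by amino acid and bars are medians. In small RNA against LMNA all points lie below 0 with TMM scaling (53 of 68 with total counts), and the serine points against GFP split into a lower and an upper group.

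The estimate of spread in this test is shared by all 12 libraries, and the third GFP library enters it. Fitted on the 6 libraries compared alone, LMNB2 against LMNA called 27 genes lower (16 serine, 10 threonine, 1 proline), beside 5.28% of features called lower in that fit. LMNB2 against LMNB1 called 31 lower (15 serine, 7 threonine, 9 proline), beside 7.04%. Without the third GFP library alone the counts were 14 against LMNA and 16 against LMNB1. The share of all features called in that fit is not given here, so these counts have no background beside them. These counts and the 1 gene each of the 12-library fit come from the same counts, and all of the calls were lower in LMNB2.

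Of the 26 serine genes tested, none passed the test in LMNB2 with all 12 libraries in the fit. Their summed small RNA was 480, 377 and 904 CPM in GFP, 504, 530 and 588 with LMNA, 484, 548 and 558 with LMNB1 and 392.4, 359.1 and 385.0 with LMNB2. The LMNB2 libraries were below all LMNA and LMNB1 libraries, while the second GFP library lay among them and the third far above. The median log2 fold change of LMNB2 over 26 serine genes was -0.52 against GFP, -0.47 against LMNA and -0.53 against LMNB1, with 0 called in each, while DESeq2 called 4, 0 and 0. The median against GFP was -0.24 without the third GFP library and -0.28 without the first, and with 1 gene per sequence the median against LMNB1 was -0.34. At an unadjusted p under 0.05 were 12, 5 and 12, all lower. By anticodon, the medians against GFP were -0.81 for AGA and -0.89 for TGA, but 0.12 for CGA and -0.03 for GCT. Against LMNA all 4 were below 0 (-0.53, -0.55, -0.33 and -0.37 in the same order).

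A set of 12 serine genes had nearly the same small RNA level in each library and was grouped after these values were seen. They are TRS-AGA1-1, TRS-AGA2-1 to TRS-AGA2-6, TRS-AGA3-1, TRS-AGA4-1, TRS-TGA2-1, TRS-TGA3-1 and TRS-TGA4-1, of which 10 lie in the chromosome 6 stretch. Their mean levels ran only from 11.1 to 17.2 CPM, a 1.55-fold span, while their ATAC levels ran from 0.143 to 6.17 CPM, a 43.2-fold span. In small RNA the median of the 12 was 11.7, 10.2 and 23.1 CPM in the GFP libraries, 10.9, 11.7 and 13.7 with LMNA, 14.0, 12.2 and 16.8 with LMNB1 and 9.62, 7.34 and 8.69 with LMNB2. The LMNB2 medians were below those of all other libraries, and the third GFP library had the highest of all 12. That library stood 1.94 to 2.19 times above the mean of the other GFP libraries at each of the 12, against a median of 1.30 times over the 56 other tested genes.

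The median log2 fold change of the 12 genes in LMNB2 was -0.82 against GFP (adjusted p 0.0725 to 0.172), -0.53 against LMNA (0.261 to 0.408) and -0.75 against LMNB1 (0.125 to 0.253), so none passed edgeR's test with all 12 libraries, while DESeq2 called 4 of them against GFP. Without the third GFP library the median against GFP was -0.34 with 0 called, against LMNA -0.55 with 7 called, and against LMNB1 -0.76 with 12 of 12 called. Without the first GFP library the median against GFP was -0.97 with 8 called, and without the second -1.03 with 1 called. Without the count filter edgeR called 11 of the 12 against GFP, 0 against LMNA and 8 against LMNB1. Fitted on the 6 libraries compared alone, it called 0 against GFP, 12 against LMNA and 12 against LMNB1. In those fits 5.28% (against LMNA) and 7.04% (against LMNB1) of all features were called lower. For the other alternative fits the share of all features is not given here. The 12 genes were grouped after their values were seen, 6 of them are identical copies, and they may share reads. Their calls are therefore not separate results. The largest negative difference from GFP by the naming rule was at TRS-TGA3-1 (chr6:26312571-26312702). It had 11.2, 10.1 and 23.1 CPM in GFP, 10.2, 11.1 and 12.9 with LMNA, 13.7, 12.5 and 15.9 with LMNB1 and 9.02, 6.86 and 8.04 with LMNB2. No LMNB2 library reached any GFP library, which the naming rule required. The log2 fold change was -0.89 ± 0.27 (SE, adjusted p = 0.0855), or -0.37 without the third GFP library. How the authors' counting divided reads among these near-alike genes was not tested.

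TRS-TGA1-1 (chr10:67764478-67764609, 909 bp from CTNNA3) was the most abundant gene and the least even. It had 70.9, 98.7 and 492 CPM in GFP, 137, 158 and 182 with LMNA, 129, 161 and 152 with LMNB1 and 94.3, 99.0 and 89.9 with LMNB2. The third GFP library held 5.80 times the mean of the other GFP libraries, which stood below or among those of LMNB2, and LMNB2 lay below all LMNA and LMNB1 libraries. Against LMNB1 the log2 fold change was -0.64 ± 0.58 (adjusted p = 0.626, or 0.0306 without the third GFP library). Against GFP it was -1.22 ± 0.58 (adjusted p = 0.275), and without the third GFP library the sign turned, to 0.20 ± 0.20 (adjusted p = 0.610).

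The most abundant genes of the other serine anticodons, and of AGA, did not pass either. TRS-GCT3-1 (chr11:66348095-66348226, within the lncRNA B4GAT1-DT) had 89.0, 47.6 and 38.1 CPM in GFP and 61.6, 54.6 and 65.8 in LMNB2, with overlapping groups and a log2 fold change of 0.06 ± 0.27 (adjusted p = 0.930). TRS-AGA5-1 had 63.2, 50.1 and 28.0 CPM in GFP, where the third library was the lowest, and 62.4, 67.1 and 67.8 with LMNA, 48.9, 69.5 and 62.1 with LMNB1 and 37.6, 47.2 and 47.7 with LMNB2. All LMNB2 libraries were below the LMNA and LMNB1 libraries, at -0.57 ± 0.27 (adjusted p = 0.296) and -0.45 ± 0.27 (adjusted p = 0.437). TRS-CGA3-1 (chr6:27672425-27672556, intergenic) had 1.35, 0.860 and 1.51 CPM in GFP and 1.57, 1.24 and 1.39 in LMNB2, with a log2 fold change of 0.17 ± 0.20 (adjusted p = 0.675).

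Threonine genes were low in small RNA yet held the only call. TRT-AGT5-1 (chr17:8139427-8139550, minus strand, 947 bp from PER1, which encodes a protein of the circadian clock) carries the AGT anticodon. It had 0.850, 1.05 and 0.958 CPM in GFP, 1.18, 1.48 and 1.25 with LMNA, 1.20, 1.37 and 1.37 with LMNB1 and 0.706, 0.563 and 0.661 with LMNB2, from 88 to 237 counts a library. The LMNB2 libraries were below every other library and the LMNA and LMNB1 libraries above every GFP library. LMNB2 fell by 1.03 ± 0.16 against LMNB1 on the log2 scale (adjusted p = 0.0033) and by 1.02 ± 0.16 against LMNA (adjusted p = 0.00558), and the joint test gave 0.00572. Against GFP the differences did not pass: -0.57 ± 0.16 for LMNB2 (adjusted p = 0.0695), 0.45 ± 0.16 for LMNA (0.895) and 0.46 ± 0.16 for LMNB1 (0.777).

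The TRT-AGT5-1 call against LMNB1 held in 18 of 19 alternatives and the call against LMNA in 17 of 19. Both were lost with total-count scaling (adjusted p = 0.213 and 0.20), and the call against LMNA also without the second LMNB2 library (0.0632). Its ATAC level was 2.90, 3.05 and 2.56 CPM in GFP and 2.49, 2.74 and 2.41 in LMNB2, which overlap (log2 fold change -0.15 ± 0.10, adjusted p = 0.911). TRS-CGA1-1, the neighbouring serine gene on the same strand at chr17:8138856-8138987, had 0.919, 0.691 and 0.676 CPM of small RNA in GFP and 0.772, 0.793 and 0.831 in LMNB2 (0.07 ± 0.19, adjusted p = 0.872).

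Over all 21 threonine genes tested, the median log2 fold change of LMNB2 was -0.24 against GFP, -0.46 against LMNA and -0.34 against LMNB1. The first of these was -0.43 without the second GFP library and 0.092 without the third. The medians against LMNA were -0.46 for AGT, -0.48 for CGT and -0.39 for TGT, so the 3 anticodons lay together. Just short of the threshold, and named after their values were seen, were TRT-AGT1-3 and TRT-AGT2-2. TRT-AGT1-3, the gene with the highest ATAC level, had 6.29, 3.42 and 7.74 CPM in GFP, 9.27, 6.36 and 9.30 with LMNA, 4.0, 5.71 and 4.55 with LMNB1 and 3.82, 3.60 and 4.57 with LMNB2. Both B-type lamin groups lay below all LMNA libraries, by -1.06 ± 0.27 for LMNB2 (adjusted p = 0.050, just above the threshold) and -0.81 ± 0.27 for LMNB1 (0.832). TRT-AGT2-2 (chr6:27684670-27684793) differed by -0.74 ± 0.19 between LMNB2 and LMNA (adjusted p = 0.0513), and DESeq2 placed both under the threshold (0.0299 and 0.0377).

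TRT-CGT5-1 (chr6:27618331-27618454, intergenic, named after its values were seen) had the largest difference of the 68 tested genes between LMNA and GFP. It had 1.94, 0.955 and 1.23 CPM in GFP, 4.27, 2.66 and 3.06 with LMNA, 1.63, 2.66 and 1.80 with LMNB1 and 2.68, 1.96 and 1.85 with LMNB2. All LMNA libraries were above all GFP libraries, with a log2 fold change of 1.28 ± 0.27 that did not pass edgeR's test (adjusted p = 0.694) and passed with DESeq2 (0.0177). The most abundant genes of the AGT and TGT anticodons overlapped between LMNA and GFP, at -0.09 ± 0.22 (adjusted p = 0.985) and -0.05 ± 0.20 (0.994). TRT-AGT1-1 (chr17:8187135-8187258, 1112 bp from BORCS6) had 6.43, 6.47 and 5.72 CPM in GFP, 4.42, 7.47 and 5.63 with LMNA and 5.90, 3.77 and 5.09 with LMNB2 (LMNB2 against GFP -0.33 ± 0.22, adjusted p = 0.423). TRT-TGT3-1 (chr14:20613765-20613887) had 5.65, 4.14 and 6.36 CPM in GFP, 5.84, 4.58 and 5.2 with LMNA and 4.51, 3.81 and 4.60 with LMNB2 (LMNB2 against GFP -0.32 ± 0.20, adjusted p = 0.396). For CGT it was tRNA-Thr-CGT-6-1 (chr6:27303764-27303885, with no RefSeq gene), which ranged from 1.28 to 9.65 CPM over the 12 libraries with wide overlap.

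**Figure D4:**
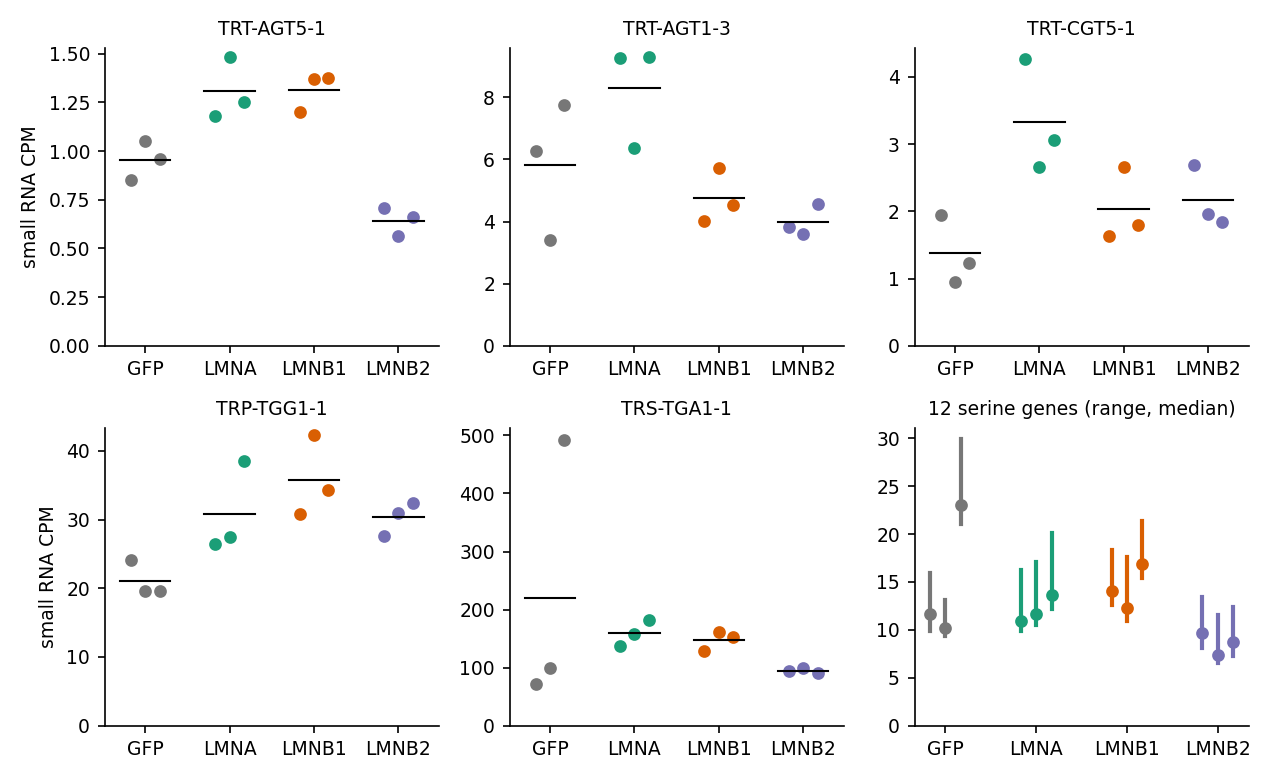
Small RNA level in CPM of 5 genes in each of the 12 libraries (points, with the group mean as a bar) and, in the last panel, the median and range of the 12 near-alike serine genes in each library. TRT-AGT5-1 lies between 0.563 and 0.706 in LMNB2, below every other library, and the third GFP library stands out for TRS-TGA1-1 at 492 and for the 12 serine genes at a median of 23.1.

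None of the 21 proline genes tested passed the test in LMNB2 with all 12 libraries in the fit. Their summed small RNA was 305 ± 63.5 CPM in GFP, 372 ± 41.3 with LMNA, 390 ± 33.9 with LMNB1 and 330 ± 28.7 with LMNB2 (SD, n = 3). The LMNB2 libraries, at 318, 309 and 362 CPM, overlapped those of GFP (350, 233 and 333) and LMNA (340, 357 and 418). Over 21 genes the median log2 fold change of LMNB2 was -0.06 against GFP, -0.20 against LMNA and -0.30 against LMNB1, and with total-count scaling the median against LMNA was 0.034. Against GFP it was -0.26 without the second GFP library and 0.18 without the third. At an unadjusted p under 0.05 stood 1 gene against GFP, 1 against LMNA and 0 against LMNB1.

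TRP-TGG1-1 (chr14:20632981-20633102, 7619 bp from the olfactory receptor gene OR6S1) had the largest positive difference from GFP in all 3 lamin groups by the naming rule, and none passed the test. It had 24.2, 19.6 and 19.6 CPM in GFP, 26.4, 27.5 and 38.6 with LMNA, 30.8, 42.3 and 34.4 with LMNB1 and 27.6, 31.0 and 32.5 with LMNB2. Every lamin library was above every GFP library, which the naming rule required. The log2 fold changes were 0.55 ± 0.22 for LMNA, 0.76 ± 0.22 for LMNB1 and 0.52 ± 0.22 for LMNB2 (adjusted p = 0.895, 0.777 and 0.204), and the 3 comparisons share the GFP libraries. In ATAC its LMNB2 libraries were lower instead, at 1.62, 1.62 and 1.60 CPM against 2.03, 2.13 and 1.79 in GFP (-0.30 ± 0.11, adjusted p = 0.860).

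The abundant proline genes overlapped between groups. TRP-TGG3-2 (chr14:20683991-20684112, 90 bp from ANG, which encodes the ribonuclease angiogenin) had 56.9, 34.9 and 38.2 CPM in GFP and 50.4, 47.8 and 59.7 in LMNB2 (0.28 ± 0.24, adjusted p = 0.544). TRP-CGG2-1 (chr6:27091717-27091838, intergenic) had 19.4, 13.5 and 19.8 CPM in GFP and 17.2, 16.5 and 21.1 in LMNB2 (0.05 ± 0.22, adjusted p = 0.918). TRP-AGG2-3 (chr7:128783425-128783546) had means of 14.5 ± 3.55 CPM in GFP and 14.5 ± 2.51 in LMNB2 (SD, n = 3). The widest fitted difference among proline genes, -2.40 ± 0.91 for tRNA-Pro-AGG-3-1 between LMNB2 and LMNA (adjusted p = 0.238), rested on 12 to 14 counts in LMNB2 against 105, 19 and 94 in LMNA.

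LMNA and LMNB1 were each compared with GFP in the same way. LMNA had 0 of 68 genes called, beside 0% of all features, with 10 at an unadjusted p under 0.05, all higher (5.46% of all features), and DESeq2 called 2, TRT-CGT5-1 and TRT-TGT4-1. LMNB1 had 0 of 68 called, beside 0.0384% of all features, with 4 unadjusted, all higher (5.51%), and DESeq2 called 0. The medians were 0.15 and 0.15, beside -0.05 and -0.05 over all features. They were -0.02 and -0.04 for serine, 0.22 and 0.14 for threonine, and 0.15 and 0.24 for proline. These medians moved with single GFP libraries: without the third they were 0.36 and 0.43 over all the genes, and without the second -0.02 and -0.01. Between LMNB1 and LMNA 0 of 68 were called, beside 0.0118% of all features, with 4 unadjusted, all lower (5.74%), and DESeq2 called 0. The shares of all features are again those of edgeR.

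**Figure D5:**
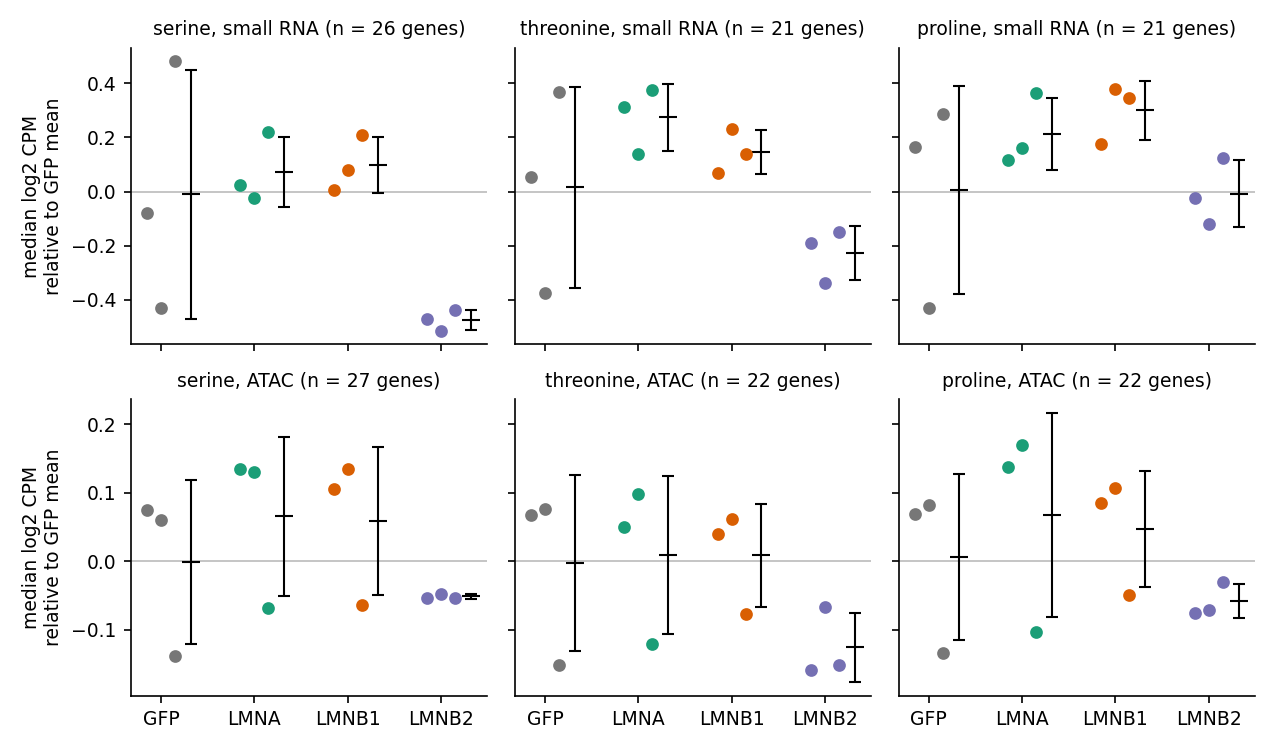
Median over genes of log2 CPM relative to the GFP mean, by amino acid (columns) in small RNA (top) and ATAC (bottom); points are libraries, bars are the mean and SD of 3. In small RNA the GFP libraries spread most, the LMNB2 mean is lowest for serine and threonine with all 3 GFP libraries, and the ATAC differences are within 0.2 on the log2 scale.

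In ATAC, 0 of 71 genes were called in any of the 7 tests by edgeR or by DESeq2, over 163786 features tested. The shares of all features called at an adjusted p under 0.05 were themselves small. They were 0.000611% for LMNA, 0.00305% for LMNB1 and 0.00244% for LMNB2 against GFP, 0.223% for LMNB1 against LMNA, 0.00305% for LMNB2 against LMNA, 0.00305% for LMNB2 against LMNB1 and 0.0421% in the joint test. At an unadjusted p under 0.05 were 3 genes for LMNA (5.19% of all features), 3 for LMNB1 (4.78%) and 8 for LMNB2 against GFP, all 8 lower (5.72%). Between the lamins it was 0 for LMNB1 against LMNA (5.37%), 13 lower for LMNB2 against LMNA (7.17%), 9 lower for LMNB2 against LMNB1 (4.98%) and 5 in the joint test (5.81%).

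The ATAC medians of LMNB2 were slightly below 0: -0.09 against GFP, -0.12 against LMNA and -0.12 against LMNB1. With total counts as the scale the median against GFP was 0.02, while that of all features was 0.11. The other nuclear tRNA genes had -0.09, -0.15 and -0.13. LMNB2 had the lowest mean ATAC level for 49 of the 71 genes. The share of all features where it was lowest is not given here, so this count has no background beside it. All 3 LMNB2 libraries were below all 3 of GFP for 8 of 71 genes (4.72% of all features), of LMNA for 8 (8.49%) and of LMNB1 for 15 (5.24%). The medians against LMNB1 were -0.10 for serine, -0.16 for threonine and -0.12 for proline genes. The ratio of the window to its 500 bp flanks had a median over genes of 3.92 ± 0.285 in GFP, 4.45 ± 0.468 with LMNA, 4.30 ± 0.0860 with LMNB1 and 4.24 ± 0.0857 with LMNB2 (SD, n = 3).

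The largest ATAC differences by the naming rule were small beside those in small RNA. TRS-CGA4-1 (chr12:56190339-56190470, 881 bp from SMARCC2, which encodes a subunit of a chromatin remodelling complex) had 2.95, 2.48 and 2.48 CPM in GFP and 2.16, 2.33 and 2.01 in LMNB2. The groups did not overlap, which the naming rule required, and the log2 fold change was -0.28 ± 0.10 (adjusted p = 0.860). TRS-TGA3-1 had 2.53, 2.76 and 2.57 CPM in GFP and 2.30, 2.26 and 2.16 in LMNB1, again without overlap by the same rule (-0.23 ± 0.09, adjusted p = 0.978). TRP-AGG2-6 (chr14:20613376-20613497) had 4.86, 4.92 and 4.71 CPM in GFP and 5.85, 5.03 and 5.49 in LMNB1 (0.18 ± 0.09, adjusted p = 0.978). Across genes the small RNA and ATAC log2 fold changes of the same comparison had Spearman correlations from -0.12 to 0.05 over 68 genes, given as a description.

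Genes around this pathway were read from 18 rows of the table: RPPH1, RMRP, RN7SK, RN7SL1, RN7SL2, 9 RNU6-1 intervals and the 4 mitochondrial tRNA genes for the same amino acids. By edgeR 0 of 18 were called in any lamin group against GFP in either assay. In small RNA, 2, 3 and 4 of the 18 had an unadjusted p under 0.05 by edgeR for LMNA, LMNB1 and LMNB2. The shares of all features were 5.46%, 5.51% and 19.9%. DESeq2 called 0, 0 and 4 (RN7SL1, RN7SL2, MT-TS1 and MT-TT). In ATAC the unadjusted counts were 2, 4 and 5, beside 5.19%, 4.78% and 5.72% of all features. There DESeq2 called 0, 3 and 4, all of them mitochondrial. RPPH1, the RNA of RNase P that trims tRNA leaders, was at 24.5 ± 3.03 CPM in GFP and 27.6 ± 2.30 in LMNB2 (SD, n = 3), a log2 fold change of 0.17 ± 0.20 (adjusted p = 0.680). RN7SL1 and RN7SL2 are the RNAs of the signal recognition particle and are also made by RNA polymerase III. In LMNB2 they stood at 0.60 ± 0.21 (adjusted p = 0.121) and 0.60 ± 0.20 (0.113), above 0 where the median of the tRNA genes was -0.17 with all GFP libraries. With LMNA they were also above 0, at 0.48 ± 0.21 and 0.43 ± 0.20 (adjusted p = 0.895 for both). With LMNB1 they stood at 0.15 and 0.17. Between LMNB2 and LMNA they differed by 0.12 and 0.17 (adjusted p = 0.806 and 0.699). The 9 intervals of RNU6-1, a spliceosomal RNA also made by that polymerase, ran from -0.25 to -0.023 (lowest adjusted p 0.664). RN7SK and RMRP were at 0.09 and 0.15. MT-TS1, a serine tRNA of the mitochondrial genome, which another polymerase transcribes, had the lowest adjusted p of the list, with -0.78 ± 0.21 in LMNB2 (0.0584). With LMNA and LMNB1 it stood at -0.42 and -0.41 (adjusted p = 0.895 and 0.861). The mitochondrial share of small RNA counts was 1.29% in the third GFP library, against 0.665% and 0.775% in the other GFP libraries. Values of these 18 rows without that library are not given here. In ATAC the 4 mitochondrial genes ran from -0.87 to -0.95 in LMNB2 (adjusted p 0.748 to 0.815), beside the lower mitochondrial share of those libraries given above.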

How the data were processed

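Small RNA and ATAC reads were counted by the authors, who deposited 1 table of whole-number counts per feature for each assay, with 1 column per library, 12 libraries and 3 per group in each; 0 columns had no sample. The submitters' processing notes name GRCh38. The aligner, strand use, the treatment of reads matching several copies and whether ATAC reads were shifted towards the transposase cut are not given in the sources used here. Raw counts were tested with edgeR 4.0.16 in R 4.3.3 (filterByExpr, TMM scaling, quasi-likelihood fit and F test, both robust), with all 12 libraries of an assay in 1 fit and Benjamini-Hochberg adjustment over every feature tested; the threshold was an adjusted p of 0.05. SE is the absolute log2 fold change over the square root of F. The steps were also run on simulated counts drawn with the same spread in every library. That run holds no deviating library, so it cannot judge results that lean on the third GFP library. Alternatives were other scalings, no count filter, DESeq2 1.42.0, the replicate number as a block, no mitochondrial features, only the libraries compared, and each library left out in turn. Genes and distances were matched to RefSeq (GRCh38.p14). Counts limit precision: over the 71 genes the median of the mean count per library was 1384 in small RNA and 535 in ATAC. Counting intervals and floors cover counting error only.

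The genes and lists were chosen with earlier results of these data known. Genes are named by rule: the highest small RNA level of each anticodon, every call, the largest rise and fall per lamin against GFP without overlap of libraries and at or above the median level, and the 3 highest ATAC levels. Others are said to be named after their values were seen or are named as range ends. The sequences of the tRNA genes were not used here.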

Additional observations from a re-analysis of the deposited data

How the results depend on the processing

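Depth and the small number of libraries limit these results, and the count of small RNA calls depended on the fit. Of 68 genes, LMNA against GFP gave 1 call without the count filter, 2 with DESeq2 and 0 to 3 with a library left out. LMNB2 against GFP gave 11 without the filter, 4 with DESeq2 and 0 to 10 with a library left out (10 without the first GFP library). Of those 10, 8 serine genes and 1 threonine gene were lower and 1 threonine gene was higher. LMNB1 against LMNA gave 1 without the filter. LMNB2 against LMNA gave 0 with total counts, 3 without the filter, 3 with DESeq2, 2 with the replicate number as a block, 27 with only the libraries compared, and 0 (without the second LMNB2 library) to 14 (without the third GFP library). LMNB2 against LMNB1 gave 0 with total counts, 9 without the filter, 31 with only the libraries compared, and 1 to 16, the highest without the third GFP library. The joint test gave 0 with total counts, 14 without the filter, 2 with DESeq2, and 0 (without the second or the third LMNB2 library) to 22 (without the third GFP library). The causes were not tested. Except for the fits of only the libraries compared, the share of all features called in each fit is not given beside these counts. No result changed its direction while called.

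With total counts the small RNA medians of LMNB2 against LMNA were -0.14 over all genes, -0.24 for serine, -0.23 for threonine and 0.034 for proline. With 1 gene per sequence the serine median against LMNB1 was -0.34, and with a library left out it ran from -0.58 to -0.35. In ATAC, total counts gave LMNB1 against GFP 0.22 over all genes, 0.23, 0.19 and 0.24 for serine, threonine and proline, and LMNB2 against LMNB1 -0.23 for threonine. The 139 ATAC counts under alternatives stayed at 0. Whether libraries of equal replicate number belong together was not settled, and the main fit did not pair them. Same-numbered libraries deviated together with correlations of -0.04 to 0.23 in small RNA and -0.08 to 0.19 in ATAC. In each assay 2 of 18 such pairs were over 0.1. In small RNA 8 of 12 libraries correlated best with a library of their own number, and in ATAC 6 of 12. Apart from the count of 2 above, the replicate block left every count of calls within 1.5 times.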
